A study of Mus musculus with 44 samples.

Results

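The transforming growth factor beta (TGF-β) and bone morphogenetic protein (BMP) signalling genes described here are 40 genes chosen by symbol: ligands, receptors, Smads, antagonists and target genes. Of these, 39 had a probe set named for them, among 12394 genes with a probe set in the whole series, and Gdf15 had none. They comprise 9 ligands, 11 receptors, 7 Smads, 8 antagonists (extracellular binders and nuclear corepressors) and 4 target genes. A single probe set stood for 21 of the members, and for the other 18 the one that varied most (by SD) across the 44 arrays was taken.

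Left ventricular RNA of 44 mice was hybridised to 44 Affymetrix 430A 2.0 arrays, each mouse on its own array. The transgenic line, called PKCε here, carries a constitutively active rabbit PKCε in cardiomyocytes under the mouse Myh6 promoter on the FVB/N background. Its controls were nontransgenic FVB/N mice from a commercial breeder, so the transgene and the origin of the mice cannot be told apart. Mouse numbers in the labels run with the groups (38 to 191 in PKCε FG-3149, 192 to 362 in PKCε IgG, 338 to 349 in FVB/N FG-3149 and 420 to 443 in FVB/N IgG), and whatever else goes with them cannot be told apart from the antibody. The 4 groups were FVB/N mice given nonimmune mouse IgG (10 mice, 7 of them female), FVB/N mice given FG-3149 (12 mice, 6 female), PKCε mice given IgG (10 mice, 5 female) and PKCε mice given FG-3149 (12 mice, 6 female). FG-3149 is an antibody that binds CTGF, connective tissue growth factor, which Ccn2 encodes. CTGF is a matricellular protein that binds TGF-β and BMP ligands. Each mouse received 30 mg/kg intraperitoneally at each injection, with 2 injections per week. Dosing began at 3 months of age and lasted 3 months, so hearts were taken at 6 months. The question behind the comparisons, as the title of the series states it, is what blocking CTGF does to transcripts in this model of dilated cardiomyopathy.

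In this pathway, dimeric ligands bring type II and type I receptor kinases together, and the activated type I receptor phosphorylates receptor-regulated Smads. TGF-β and activin ligands mainly use Smad2 and Smad3, BMP ligands mainly use Smad1 and Smad5, and both kinds enter the nucleus with Smad4, while Smad6 and Smad7 inhibit the pathway. In the heart, TGF-β is best known for turning fibroblasts into matrix-producing cells, and BMP signals for heart development and endothelial function.

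All values are log2 ratios of a gene to its own median over the 44 arrays, so 0 is the median array and levels of different genes cannot be compared. Changes are log2 differences with the standard error (SE) of a limma fit with a term for sex, and a gene was called at an adjusted p under 0.05. The arrays come from whole tissue, so fewer cells of a type and less RNA per cell cannot be told apart.

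Some arrays stood apart. The mean level of the atrial genes Sln, Myl7 and Myl4 lay above 4 on 5 of the 10 FVB/N IgG arrays, all from females, and on 1, 2 and 2 arrays of the FVB/N FG-3149, PKCε IgG and PKCε FG-3149 groups. PKCε IgG replicates 9 and 10 had high levels of both lung markers, with Sftpc at 9.32 and 3.53 and Scgb1a1 at 10.1 and 3.71, and they are called the arrays of high lung markers here. Among the arrays of high atrial level, Scgb1a1 without Sftpc was also high on FVB/N IgG replicates 4 (9.36) and 9 (5.08) and PKCε FG-3149 replicate 7 (4.74). These stayed in when the arrays of high lung markers were left out. Scgb1a1 on the remaining arrays is not given here. The mean of 4 lung markers reached 1.29 in FVB/N FG-3149 mice (median 0.021), so further arrays may have raised lung markers. FVB/N FG-3149 replicate 11 went against its label: it is labelled female, but its Y-linked Uty stood at 3.63, where no other female array exceeded 0.023 and no male array was under 3.78, and its Xist (-0.71) was the lowest of the female arrays. Without that array the counts of members given below did not move, except that Skil lost its call with the antibody in FVB/N mice and Bmp7 gained a call for sex. As a measure of RNA integrity, the Gapdh signal at the 3′ end minus that at the 5′ end averaged 0.30 in PKCε IgG mice and -0.035 in FVB/N IgG mice, and 0.037 and -0.13 in the PKCε and FVB/N FG-3149 mice. The probe set used for mouse Prkce was higher in the PKCε groups (medians 0.045 under IgG and 0.22 under FG-3149) than in the FVB/N groups (-0.53 and -0.10), but the other one was lower (-0.35 and -0.14 against 0.20 and 0.25), so they give no check of the rabbit transgene.

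The first comparison asks how the PKCε line differed from FVB/N under IgG. Under IgG, 20 of the 39 members were higher in PKCε mice, 0 were lower and 19 were not called, where 42.2% of all genes were called, 20.7% higher and 21.5% lower. All arrays of the PKCε mice lay above all of the FVB/N mice for 5 members (Tgfb2, Bmp4, Acvrl1, Smad1 and Fstl1) and below them for 0, beside 2.66% of all genes above and 1.72% below. The members called higher were 6 of 9 ligands, 6 of 11 receptors, 1 of 7 Smads, 5 of 8 antagonists and 2 of 4 targets. The median difference over the members was 0.30, beside -0.046 over all genes. The TGF-β ligands Tgfb2 and Tgfb3, the ligand Bmp4, the follistatin-like protein Fstl1 and the matrix protein Tgfbi differed most. By the probe sets used, the shared Smad4 and the inhibitory Smad6 and Smad7 were not called. Of the 20 members, 11 kept the call in all 18 other settings, Bmp6 and Tgif1 in 17, Eng in 16, Acvr1 in 15, Inhba and Acvr2a in 14, Fstl3 and Id3 in 13 and Tgfb1 in 11.

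The same line comparison can be made in the antibody-treated mice, which are other mice than those compared under IgG. Both comparisons come from the same fit and share its sex term and its estimate of spread, so they are not fully independent. Under FG-3149, 23 members were higher in PKCε mice, 5 were lower and 11 were not called, where 47.0% of all genes were called, 21.5% higher and 25.5% lower. For 5 members (Tgfb2, Tgfbr1, Tgfbr2, Fstl1 and Tgfbi) all PKCε arrays lay above all FVB/N arrays and for 0 below, beside 2.69% and 2.56% of all genes. The 5 lower members were Tgfbr3, Acvr1b, Smad3, Grem1 and Id1. Called higher under both treatments were 18 members, Tgfb1 and Eng were called under IgG alone, and 10 were called under FG-3149 alone. By the probe sets used, the 9 members called in neither comparison, nor in any antibody comparison, were Bmp7, Inhbb, Acvr2b, Smad4, Smad5, Smad6, Smad7, Fst and Nog. A call in one comparison and not in the other does not show that the line difference changed with the antibody, and the test of that difference is given with the antibody comparisons.

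**Figure D1:**
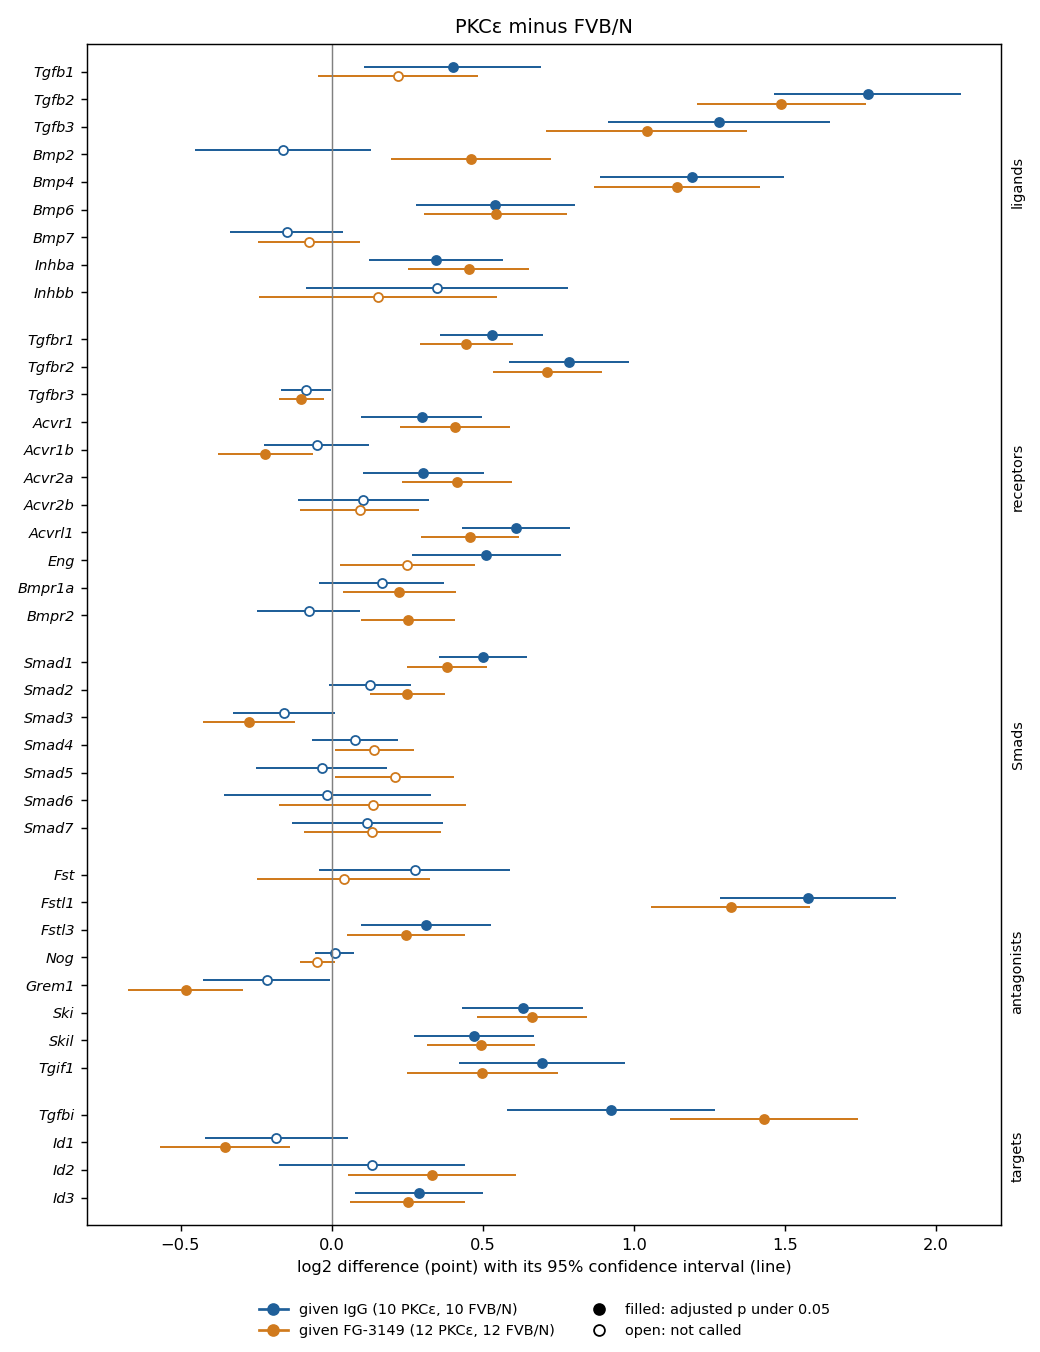
PKCε minus FVB/N for each of the 39 measured members, grouped by role, under IgG (blue) and under FG-3149 (orange). Points are log2 differences of the limma fit, lines their 95% confidence intervals, and filled points are called. Tgfb2, Tgfb3, Bmp4 and Fstl1 lie above 1 under both treatments, whereas most Smads lie close to 0.

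Marker genes of other cell types moved along the same contrast. Of 7 fibroblast markers, 6 were higher in PKCε mice under IgG and 7 under FG-3149. Their mean level ran from -0.80 to 0.39 (median -0.30) in FVB/N IgG, from -1.02 to -0.35 (median -0.63) in FVB/N FG-3149, from 0.09 to 1.07 (median 0.59) in PKCε IgG and from -0.10 to 0.78 (median 0.27) in PKCε FG-3149. Of 7 ventricular cardiomyocyte markers, 3 were lower in PKCε mice under IgG and 4 under FG-3149, with 0 higher. Among 6 endothelial markers, 0 were called under IgG, and 1 was higher and 2 lower under FG-3149. Macrophage markers were higher in 1 of 5 cases under IgG and in 3 of 5 under FG-3149, with 0 lower, and of 5 mural cell markers 2 were higher and 2 lower under each treatment. All 4 adipocyte markers were lower in PKCε mice under IgG and 0 were called under FG-3149. The part of these cell types in the members' differences was not tested.

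Members that were higher by more than 1 on the log2 scale under both treatments were Tgfb2, Tgfb3, Bmp4 and Fstl1. To show the DNA beside which these transcripts start, the 250 bases before the RefSeq start are printed 5′ to 3′ on the gene's strand (GRCm38.p6) for the 3 of them with a promoter entry. They lie at chr1:186705990-186706239 on the minus strand for Tgfb2, chr14:46390670-46390919 on the minus strand for Bmp4 and chr16:37776805-37777054 on the plus strand for Fstl1. Capitals mark the TATA box letters TATAAA.
Tgfb2: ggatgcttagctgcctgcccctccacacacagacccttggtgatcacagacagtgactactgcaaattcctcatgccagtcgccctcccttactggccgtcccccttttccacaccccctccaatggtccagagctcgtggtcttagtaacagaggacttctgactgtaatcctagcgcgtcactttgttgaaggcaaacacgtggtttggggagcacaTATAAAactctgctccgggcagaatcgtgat
Bmp4: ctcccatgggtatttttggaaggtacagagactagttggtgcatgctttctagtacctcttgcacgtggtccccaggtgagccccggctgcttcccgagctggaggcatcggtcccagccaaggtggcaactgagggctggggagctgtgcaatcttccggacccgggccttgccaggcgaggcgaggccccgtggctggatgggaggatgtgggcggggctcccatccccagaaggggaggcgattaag
Fstl1: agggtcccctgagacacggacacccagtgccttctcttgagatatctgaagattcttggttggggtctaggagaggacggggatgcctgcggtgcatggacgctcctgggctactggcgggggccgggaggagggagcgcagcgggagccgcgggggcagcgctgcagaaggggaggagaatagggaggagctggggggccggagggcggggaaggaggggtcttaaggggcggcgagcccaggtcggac
The match in the Tgfb2 window starts 31 bases before the RefSeq start (position -31). On both strands, TATAAA is found in 12.4% of all 32851 promoters of that length and in 3 of the 36 promoters listed for 28 members, those of Tgfb2, Inhba and Fstl3. The Smad palindrome GTCTAGAC is in 0.167% of all promoters and in 0 of the 36. The GC-rich Smad element GGCGCC is in 9.59% and in 8 of the 36 (Tgfbr1, Bmpr1a, Bmpr2, Smad5, Grem1, Ski, Tgfbi and Id2), and the cyclic AMP element TGACGTCA is in 1.55% and in 0 of the 36. Apart from the marked TATAAA, none of these motifs is in the windows printed.

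Among the ligands, Tgfb2 had the largest difference. Under IgG, Tgfb2 (probe set 1450922_a_at) ran from -1.08 to -0.13 (median -0.47) in FVB/N mice and from 0.0014 to 2.13 (median 1.26) in PKCε mice. Under FG-3149, Tgfb2 ran from -1.01 to -0.0014 (median -0.65) in FVB/N mice and from 0.34 to 1.59 (median 0.85) in PKCε mice. The groups did not overlap under either treatment. The difference under FG-3149 was 1.49 ± 0.14 (SE, 2.81-fold, adjusted p = 1.4e-11), beside 1.77 under IgG. Its other 2 probe sets gave 1.41 and 1.31 under IgG, and 1.02 and 1.23 under FG-3149. PKCε IgG females (1.69 ± 0.34, mean ± SD, n = 5) lay above the PKCε IgG males (0.60 ± 0.45, n = 5), with the lowest female at 1.28 and the highest male at 1.23. These males are mice 192 to 196 and the females mice 322 to 362, so in this group sex and mouse number cannot be told apart.

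Tgfb3, the other TGF-β isoform called in both comparisons, spread more widely in the controls. Under IgG, Tgfb3 ran from -0.97 to 1.08 (median -0.40) in FVB/N mice and from 0.27 to 1.76 (median 0.87) in PKCε mice. Under FG-3149, Tgfb3 ran from -1.01 to -0.36 (median -0.71) in FVB/N mice and from -0.40 to 0.97 (median 0.50) in PKCε mice. The highest FVB/N IgG value is that of replicate 2, an array with high atrial genes, and only 4 of 10 PKCε IgG arrays exceeded it. Under FG-3149, 11 of 12 PKCε arrays exceeded every FVB/N array. The difference was 1.28 ± 0.18 (SE, 2.43-fold, adjusted p = 1.88e-07) under IgG and 1.04 ± 0.16 (SE, 2.06-fold, adjusted p = 1.68e-06) under FG-3149.

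Tgfb1, the isoform most often linked to cardiac fibrosis, differed less. Under IgG, Tgfb1 ran from -0.72 to 0.30 (median -0.14) in FVB/N mice and from -0.11 to 0.73 (median 0.13) in PKCε mice. Under FG-3149, Tgfb1 ran from -0.51 to 0.24 (median 0.012) in FVB/N mice and from -0.26 to 1.32 (median 0.049) in PKCε mice. The groups overlapped under both treatments. The difference was 0.40 ± 0.14 (SE, 1.32-fold, adjusted p = 0.022) under IgG and 0.22 ± 0.13 (adjusted p = 0.155) under FG-3149. The call under IgG was lost without FVB/N IgG replicate 9 or PKCε IgG replicate 7 or 8 (adjusted p up to 0.0577), and without the arrays of high atrial level it was 0.24 (adjusted p = 0.266). In males alone Tgfb1 stood on the other side of 0, at -0.071 (adjusted p = 0.791).

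Bmp4, a BMP ligand that signals in mesoderm and heart development, separated the lines. Under IgG, Bmp4 (probe set 1422912_at) ran from -0.95 to 0.011 (median -0.57) in FVB/N mice and from 0.16 to 1.60 (median 0.40) in PKCε mice. Under FG-3149, Bmp4 ran from -1.005 to 0.076 (median -0.54) in FVB/N mice and from -0.12 to 1.15 (median 0.72) in PKCε mice. There was no overlap under IgG, and under FG-3149 10 of 12 PKCε arrays exceeded every FVB/N array. The difference was 1.19 ± 0.15 (SE, 2.29-fold, adjusted p = 1.48e-08) under IgG and 1.14 ± 0.13 (SE, 2.21-fold, adjusted p = 5.42e-09) under FG-3149.

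Bmp6, which in the liver controls iron balance, was higher in PKCε mice under both treatments. Under IgG, Bmp6 ran from -0.47 to 0.41 (median -0.18) in FVB/N mice and from -0.25 to 1.08 (median 0.22) in PKCε mice. Under FG-3149, Bmp6 ran from -0.49 to 0.020 (median -0.27) in FVB/N mice and from -0.17 to 0.71 (median 0.21) in PKCε mice. The lines overlapped under both. The difference was 0.54 ± 0.13 (SE, 1.46-fold, adjusted p = 0.000659) under IgG and 0.54 ± 0.12 (SE, 1.46-fold, adjusted p = 0.000204) under FG-3149, and in males alone neither was called (0.24 with adjusted p = 0.368, and 0.28 with adjusted p = 0.128).

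Inhba encodes the βA subunit of activin A. Under IgG, Inhba (probe set 1422053_at) ran from -0.53 to 0.92 (median 0.062) in FVB/N mice and from -0.063 to 1.20 (median 0.29) in PKCε mice. Under FG-3149, Inhba ran from -0.88 to 0.0038 (median -0.53) in FVB/N mice and from -0.54 to 0.52 (median 0.036) in PKCε mice. The lines overlapped widely under IgG, where 6 of 10 PKCε arrays exceeded the FVB/N median, and less so under FG-3149, where 11 of 12 did. The difference was 0.34 ± 0.11 (SE, 1.27-fold, adjusted p = 0.00927) under IgG and 0.45 ± 0.10 (SE, 1.37-fold, adjusted p = 0.00023) under FG-3149. The value under IgG was 0.25 (adjusted p = 0.184) in a fit with no sex term.

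Bmp2, a BMP ligand close to Bmp4 in sequence, was called under FG-3149 alone. Under IgG, Bmp2 ran from -0.48 to 1.07 (median 0.35) in FVB/N mice and from -0.46 to 0.73 (median 0.053) in PKCε mice. Under FG-3149, Bmp2 ran from -0.55 to 0.078 (median -0.33) in FVB/N mice and from -0.23 to 0.93 (median 0.11) in PKCε mice. The FVB/N mice given FG-3149 were low, and 6 of 12 PKCε arrays exceeded them all. The difference was -0.16 ± 0.14 (adjusted p = 0.362) under IgG and 0.46 ± 0.13 (SE, 1.38-fold, adjusted p = 0.00363) under FG-3149. The remaining ligands were not called in either comparison: Bmp7 differed by -0.15 ± 0.091 under IgG and -0.075 ± 0.082 under FG-3149, and Inhbb, the βB subunit of activins, by 0.35 ± 0.21 and 0.15 ± 0.19. Under FG-3149 another probe set of each was called lower, at -0.16 for Bmp7 and -0.20 for Inhbb.

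**Figure D2:**
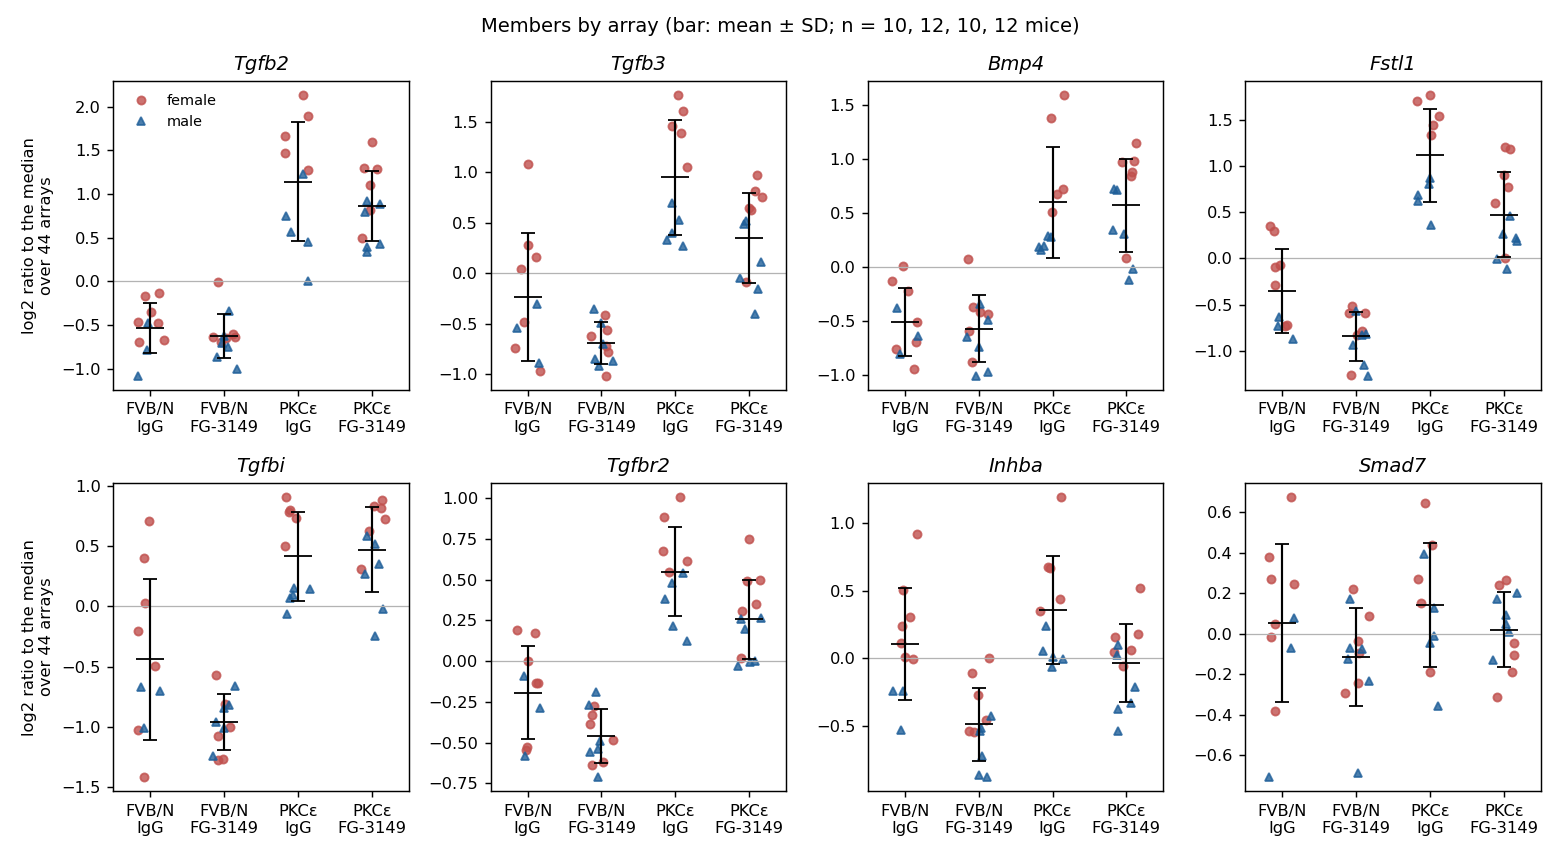
Every array of 8 members, as log2 ratio to the gene's median over the 44 arrays, by group (10, 12, 10 and 12 mice); circles are females, triangles males, and bars give the mean ± SD. Tgfb2 and Fstl1 do not overlap between the lines under either treatment, Inhba is low in FVB/N FG-3149, and Smad7 overlaps in all 4 groups.

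Among the receptors, the TGF-β pair was higher in PKCε mice by the probe sets used. Tgfbr2, the type II receptor that binds TGF-β first, has 3 probe sets, and 1426397_at was the one used. Under IgG, Tgfbr2 ran from -0.58 to 0.19 (median -0.13) in FVB/N mice and from 0.12 to 1.01 (median 0.55) in PKCε mice. Under FG-3149, Tgfbr2 ran from -0.71 to -0.19 (median -0.49) in FVB/N mice and from -0.032 to 0.75 (median 0.26) in PKCε mice. All but 1 of the PKCε IgG arrays lay above every FVB/N IgG array, and under FG-3149 there was no overlap. The difference under FG-3149 was 0.71 ± 0.088 (SE, 1.64-fold, adjusted p = 1.31e-08), beside 0.79 under IgG.

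The other Tgfbr2 probe sets did not follow. With 1422019_at, group means were 0.03 ± 0.11 (SD, n = 10) in FVB/N IgG, 0.10 ± 0.10 (n = 12) in FVB/N FG-3149, -0.08 ± 0.16 (n = 10) in PKCε IgG and -0.02 ± 0.14 (n = 12) in PKCε FG-3149. With 1425444_a_at they were -0.02 ± 0.20, 0.01 ± 0.13, 0.01 ± 0.13 and 0.04 ± 0.20 in the same order. All these means lie within about 1 SD of 0. With the probe set used, those of FVB/N FG-3149 (-0.46 ± 0.17) and PKCε IgG (0.55 ± 0.27) lay further out, and those of the other groups did not. Under FG-3149 the line difference was -0.12 ± 0.05 for 1422019_at (adjusted p = 0.0484 over all probe sets) and 0.03 ± 0.07 for 1425444_a_at (adjusted p = 0.732). With the 3 averaged, Tgfbr2 was called higher, at 0.23 under IgG and 0.21 under FG-3149, but this average includes the probe set used. Neither of the others was called higher under either treatment, and 1422019_at was called lower under FG-3149. So the call of Tgfbr2 as higher rests on 1 of 3 probe sets. Which transcripts or regions each probe set reads was not analysed here.

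For Tgfbr1, the type I partner of Tgfbr2, the probe sets also disagreed. Under IgG, Tgfbr1 (probe set 1420895_at) ran from -0.59 to 0.092 (median -0.12) in FVB/N mice and from -0.015 to 0.90 (median 0.27) in PKCε mice. Under FG-3149, Tgfbr1 ran from -0.39 to -0.029 (median -0.19) in FVB/N mice and from -0.012 to 0.44 (median 0.29) in PKCε mice. There was no overlap under FG-3149, and 7 of 10 PKCε arrays exceeded every FVB/N array under IgG. The difference was 0.53 ± 0.083 (SE, 1.44-fold, adjusted p = 1.3e-06) under IgG and 0.45 ± 0.075 (SE, 1.36-fold, adjusted p = 5.52e-06) under FG-3149. The other probe sets of Tgfbr1 were at -0.043 and -0.11 under IgG (adjusted p = 0.415 and 0.0435), and at -0.096 and -0.13 under FG-3149 (adjusted p = 0.0367 and 0.00841), so 1 and both of them were called lower.

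Acvrl1 and Eng encode a type I receptor and a coreceptor known mainly from endothelium. Under IgG, Acvrl1 ran from -0.60 to -0.030 (median -0.26) in FVB/N mice and from 0.035 to 0.53 (median 0.26) in PKCε mice. Under FG-3149, Acvrl1 ran from -0.54 to 0.23 (median -0.34) in FVB/N mice and from -0.052 to 0.65 (median 0.20) in PKCε mice. Acvrl1 did not overlap between the lines under IgG and overlapped under FG-3149. The difference was 0.61 ± 0.087 (SE, 1.53-fold, adjusted p = 2.62e-07) under IgG and 0.46 ± 0.079 (SE, 1.37-fold, adjusted p = 9.03e-06) under FG-3149.

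For Eng, the highest control reached further. Under IgG, Eng ran from -0.68 to 0.66 (median -0.16) in FVB/N mice and from 0.042 to 1.04 (median 0.32) in PKCε mice. Under FG-3149, Eng ran from -0.57 to 0.085 (median -0.21) in FVB/N mice and from -0.27 to 0.30 (median 0.023) in PKCε mice. The lines overlapped under both treatments. The difference was 0.51 ± 0.12 (SE, 1.43-fold, adjusted p = 0.000646) under IgG and 0.25 ± 0.11 (adjusted p = 0.0557) under FG-3149, and the other probe set gave 0.22 (adjusted p = 0.125) under IgG.

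Acvr1, a type I receptor for BMPs, and Acvr2a, a type II receptor for activins and BMPs, were higher by smaller amounts. Under IgG, Acvr1 ran from -0.49 to 0.81 (median -0.12) in FVB/N mice and from -0.0032 to 0.63 (median 0.20) in PKCε mice. Under FG-3149, Acvr1 ran from -0.31 to -0.056 (median -0.20) in FVB/N mice and from -0.065 to 0.42 (median 0.20) in PKCε mice. FVB/N IgG replicate 2 was the highest of the IgG arrays, so no PKCε array exceeded every control there. The difference was 0.30 ± 0.10 (SE, 1.23-fold, adjusted p = 0.0131) under IgG and 0.41 ± 0.089 (SE, 1.33-fold, adjusted p = 0.000245) under FG-3149. With its 3 probe sets averaged, Acvr1 was not called under IgG (0.13, adjusted p = 0.0843).

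Acvr2a showed a like size of difference. Under IgG, Acvr2a ran from -0.56 to 0.37 (median -0.20) in FVB/N mice and from -0.34 to 0.45 (median 0.19) in PKCε mice. Under FG-3149, Acvr2a ran from -0.52 to 0.080 (median -0.20) in FVB/N mice and from -0.079 to 0.42 (median 0.20) in PKCε mice. The lines overlapped under both treatments. The difference was 0.30 ± 0.10 (SE, 1.23-fold, adjusted p = 0.0111) under IgG and 0.42 ± 0.088 (SE, 1.33-fold, adjusted p = 0.000192) under FG-3149. The Acvr2a call under IgG was lost in females alone (0.16, adjusted p = 0.338), with the Gapdh covariate (adjusted p = 0.0848) and without the arrays of high lung markers (adjusted p = 0.0520).

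The BMP receptors Bmpr1a (type I) and Bmpr2 (type II) were called under FG-3149 alone. Under IgG, Bmpr1a ran from -0.49 to 0.13 (median -0.17) in FVB/N mice and from -0.28 to 0.42 (median -0.065) in PKCε mice. Under FG-3149, Bmpr1a ran from -0.52 to 0.26 (median -0.0071) in FVB/N mice and from -0.087 to 0.62 (median 0.26) in PKCε mice. The overlap was wide under both, and the call under FG-3149 was lost when any of 11 arrays was left out. The difference was 0.17 ± 0.10 (adjusted p = 0.177) under IgG and 0.22 ± 0.091 (SE, 1.17-fold, adjusted p = 0.04) under FG-3149. Of the other 4 probe sets of Bmpr1a, 1 was called higher under IgG (0.21) and 3 under FG-3149 (0.13 to 0.34).

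Bmpr2 was low in FVB/N mice given the antibody. Under IgG, Bmpr2 ran from -0.36 to 0.46 (median 0.13) in FVB/N mice and from -0.16 to 0.35 (median 0.12) in PKCε mice. Under FG-3149, Bmpr2 ran from -0.40 to -0.12 (median -0.23) in FVB/N mice and from -0.35 to 0.33 (median 0.064) in PKCε mice. The FVB/N FG-3149 arrays were low and close together, and 9 of 12 PKCε arrays exceeded them all. The difference was -0.076 ± 0.083 (adjusted p = 0.464) under IgG and 0.25 ± 0.075 (SE, 1.19-fold, adjusted p = 0.00598) under FG-3149.

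By the probe sets used, Tgfbr3 and Acvr1b were called lower under FG-3149. Tgfbr3, the coreceptor betaglycan, spread little: its group medians were 0.01 in FVB/N IgG, 0.06 in FVB/N FG-3149, -0.09 in PKCε IgG and -0.04 in PKCε FG-3149, over arrays from -0.17 to 0.33. The difference was -0.085 ± 0.039 (adjusted p = 0.0768) under IgG and -0.10 ± 0.036 (SE, 1.07-fold, adjusted p = 0.0206) under FG-3149, a call lost without FVB/N FG-3149 replicate 12 (adjusted p = 0.0528). Acvr1b, the type I receptor for activin, ran from -0.0087 to 0.72 (median 0.11) in FVB/N mice and from -0.12 to 0.46 (median -0.036) in PKCε mice under FG-3149. Under IgG, Acvr1b ran from -0.17 to 0.31 (median 0.0049) and from -0.16 to 0.48 (median -0.029). Overlap was wide for both genes. The Acvr1b difference was -0.049 ± 0.085 (adjusted p = 0.653) under IgG and -0.22 ± 0.077 (SE, 1.16-fold, adjusted p = 0.0184) under FG-3149, and with its 2 probe sets averaged it was -0.057 (adjusted p = 0.264) under FG-3149. The other probe set of Acvr1b went the other way, at 0.17 under IgG (adjusted p = 0.00537) and 0.10 under FG-3149 (adjusted p = 0.0520). Acvr2b, the second activin type II receptor, was not called, at 0.11 ± 0.11 and 0.093 ± 0.10.

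**Figure D3:**
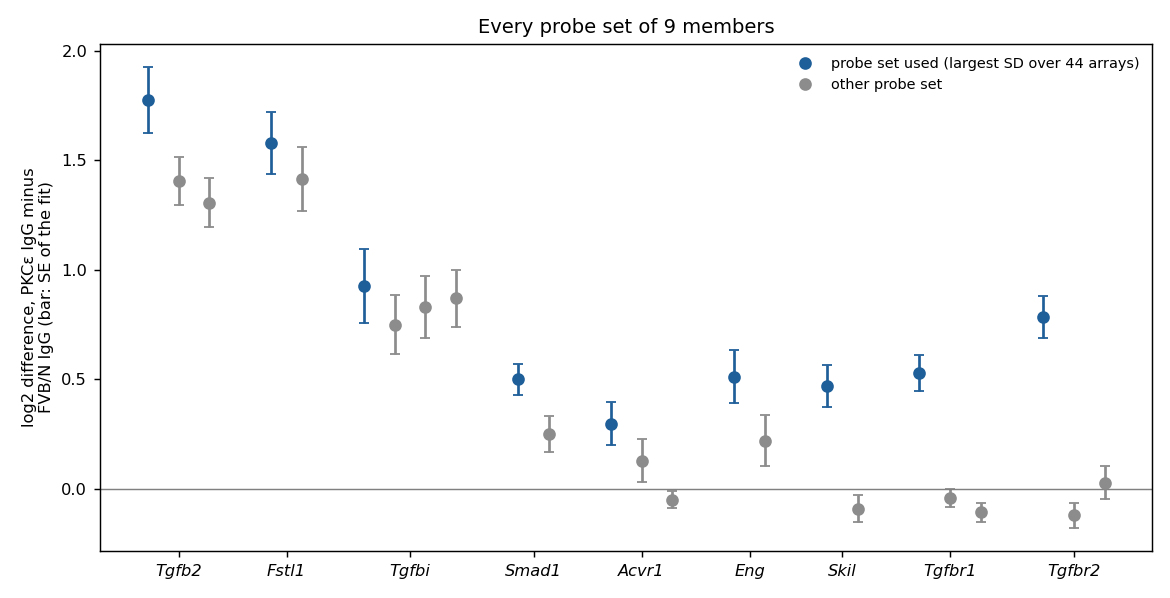
Line difference under IgG for every probe set of 9 members (log2, bars ± SE); blue is the probe set used and grey the others. The probe sets of Tgfb2, Fstl1 and Tgfbi all lie above 0.7, while the grey ones of Skil, Tgfbr1 and Tgfbr2 lie near 0 or below it.

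The Smads differed least of the roles. By the probe sets used, Smad1, which carries BMP signals, was the only Smad called higher under IgG. Under IgG, Smad1 (probe set 1448208_at) ran from -0.43 to -0.061 (median -0.30) in FVB/N mice and from 0.090 to 0.44 (median 0.25) in PKCε mice. Under FG-3149, Smad1 ran from -0.50 to 0.11 (median -0.38) in FVB/N mice and from -0.19 to 0.32 (median 0.10) in PKCε mice. Under IgG the lines did not overlap, and under FG-3149 they did. The difference was 0.50 ± 0.071 (SE, 1.42-fold, adjusted p = 2.04e-07) under IgG and 0.38 ± 0.064 (SE, 1.3-fold, adjusted p = 5.47e-06) under FG-3149, and the other probe set gave 0.25 under IgG (called).

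Smad2 and Smad3, the Smads of TGF-β and activin, were called in opposite directions under FG-3149. Under FG-3149, Smad2 ran from -0.27 to 0.12 (median -0.11) in FVB/N mice and from -0.10 to 0.42 (median 0.14) in PKCε mice, and under IgG from -0.24 to 0.18 (median -0.16) and from -0.22 to 0.23 (median 0.016). Under FG-3149, Smad3 ran from -0.046 to 0.75 (median 0.11) in FVB/N mice and from -0.30 to 0.15 (median -0.058) in PKCε mice, and under IgG from -0.32 to 0.45 (median 0.058) and from -0.26 to 0.18 (median -0.066). Both overlapped between the lines. Smad2 differed by 0.25 ± 0.059 (SE, 1.19-fold, adjusted p = 0.000679) under FG-3149 and by 0.13 ± 0.066 (adjusted p = 0.11) under IgG. Smad3 differed by -0.27 ± 0.074 (SE, 1.21-fold, adjusted p = 0.00283) under FG-3149 and by -0.16 ± 0.082 (adjusted p = 0.119) under IgG.

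Smad4, Smad5, Smad6 and Smad7 were not called in either line comparison by the probe sets used. The other 2 probe sets of Smad4 were called higher in both, at 0.13 and 0.16 under IgG and 0.19 and 0.23 under FG-3149, and the other one of Smad5 under FG-3149 (0.30). With probe sets averaged, Smad4 was called higher under IgG (0.12, adjusted p = 0.0165) and under FG-3149 (0.19, adjusted p = 9.44e-05). Averaged Smad5 was called higher under FG-3149 (0.25, adjusted p = 0.000881). By the probe sets used, Smad4, Smad5, Smad6 and Smad7 differed under IgG by 0.078 ± 0.070, -0.033 ± 0.11, -0.014 ± 0.17 and 0.12 ± 0.12. Under FG-3149 they differed by 0.14 ± 0.063, 0.21 ± 0.10, 0.14 ± 0.15 and 0.14 ± 0.11. For Smad7, which inhibits TGF-β receptors, the 95% interval was -0.13 to 0.36 under IgG and -0.087 to 0.36 under FG-3149. For Smad6, which mainly inhibits BMP signals, it was -0.35 to 0.33 and -0.17 to 0.44. Missing the threshold does not show equal levels: the intervals give the differences that these arrays still allow.

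Among the antagonists, Fstl1, a secreted follistatin-like glycoprotein that binds BMP4, differed most. Under IgG, Fstl1 (probe set 1448259_at) ran from -0.87 to 0.35 (median -0.46) in FVB/N mice and from 0.36 to 1.77 (median 1.11) in PKCε mice. Under FG-3149, Fstl1 ran from -1.27 to -0.52 (median -0.82) in FVB/N mice and from -0.11 to 1.21 (median 0.36) in PKCε mice. No PKCε array lay within the FVB/N range of its treatment. The difference was 1.58 ± 0.14 (SE, 2.98-fold, adjusted p = 6.93e-12) under IgG and 1.32 ± 0.13 (SE, 2.5-fold, adjusted p = 5.44e-11) under FG-3149, and the other probe set gave 1.41 under IgG.

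Fstl3, which binds activins and myostatin, differed less and overlapped. Under IgG, Fstl3 ran from -0.24 to 0.96 (median 0.091) in FVB/N mice and from -0.13 to 0.95 (median 0.48) in PKCε mice. Under FG-3149, Fstl3 ran from -0.44 to 0.053 (median -0.17) in FVB/N mice and from -0.27 to 0.58 (median -0.033) in PKCε mice. No PKCε IgG array exceeded every FVB/N IgG array, and 5 of 12 did so under FG-3149. The difference was 0.31 ± 0.11 (SE, 1.24-fold, adjusted p = 0.015) under IgG and 0.25 ± 0.10 (SE, 1.19-fold, adjusted p = 0.031) under FG-3149. The call of Fstl3 under IgG was lost with no sex term (0.23, adjusted p = 0.189), in males alone (adjusted p = 0.0674), with the Gapdh covariate (adjusted p = 0.0843) and without the arrays of high lung markers (adjusted p = 0.0570). That under FG-3149 was lost without FVB/N FG-3149 replicate 6, 10 or 12 or PKCε FG-3149 replicate 9 (adjusted p up to 0.0684).

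The nuclear corepressors Ski, Skil and Tgif1, which restrain Smad-driven transcription, were higher in PKCε mice under both treatments. Under IgG, Ski ran from -0.77 to 0.23 (median -0.24) in FVB/N mice and from -0.059 to 0.67 (median 0.32) in PKCε mice. Under FG-3149, Ski ran from -0.72 to -0.10 (median -0.41) in FVB/N mice and from -0.12 to 0.48 (median 0.16) in PKCε mice. Of the PKCε arrays, 6 of 10 under IgG and 11 of 12 under FG-3149 exceeded every control. The difference was 0.63 ± 0.10 (SE, 1.55-fold, adjusted p = 1.15e-06) under IgG and 0.66 ± 0.088 (SE, 1.58-fold, adjusted p = 7.31e-08) under FG-3149.

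Skil, which encodes the Ski-related protein SnoN, overlapped more. Under IgG, Skil ran from -0.45 to 0.34 (median -0.11) in FVB/N mice and from -0.16 to 0.75 (median 0.35) in PKCε mice. Under FG-3149, Skil ran from -0.74 to -0.16 (median -0.39) in FVB/N mice and from -0.21 to 0.39 (median 0.12) in PKCε mice. The lines overlapped under both treatments. The difference was 0.47 ± 0.10 (SE, 1.39-fold, adjusted p = 0.000103) under IgG and 0.50 ± 0.087 (SE, 1.41-fold, adjusted p = 1.2e-05) under FG-3149. Its other probe set gave -0.091 (adjusted p = 0.226) and -0.066 (adjusted p = 0.329), so the call rests on 1 of 2 probe sets.

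Tgif1, a homeodomain corepressor, spread widely in PKCε mice. Under IgG, Tgif1 ran from -0.34 to 0.47 (median -0.13) in FVB/N mice and from -0.074 to 1.56 (median 0.45) in PKCε mice. Under FG-3149, Tgif1 ran from -0.31 to 0.14 (median -0.083) in FVB/N mice and from -0.074 to 1.08 (median 0.52) in PKCε mice. Its lowest PKCε arrays lay within the FVB/N range under both treatments. The difference was 0.70 ± 0.13 (SE, 1.62-fold, adjusted p = 4.78e-05) under IgG and 0.50 ± 0.12 (SE, 1.41-fold, adjusted p = 0.000953) under FG-3149, and in males alone neither was called (0.38 with adjusted p = 0.141, and 0.34 with adjusted p = 0.0693).

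Grem1, the BMP antagonist gremlin, was the antagonist called lower, and only under FG-3149. Under IgG, Grem1 ran from -0.22 to 0.32 (median 0.050) in FVB/N mice and from -0.44 to 0.057 (median -0.11) in PKCε mice. Under FG-3149, Grem1 ran from -0.0020 to 0.46 (median 0.23) in FVB/N mice and from -1.31 to 0.048 (median -0.14) in PKCε mice. PKCε FG-3149 replicate 1 was the lowest array, and 10 of 12 PKCε arrays lay below every FVB/N array. The difference was -0.21 ± 0.10 (adjusted p = 0.0866) under IgG and -0.48 ± 0.093 (SE, 1.4-fold, adjusted p = 4.78e-05) under FG-3149. Fst, which binds activins, and Nog, which binds BMPs, were not called: Fst differed by 0.27 ± 0.15 and 0.040 ± 0.14, and Nog by 0.011 ± 0.030 and -0.047 ± 0.027.

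Among the targets, Tgfbi, a secreted matrix protein named for its induction by TGF-β, differed most. Under IgG, Tgfbi (probe set 1448123_s_at) ran from -1.42 to 0.71 (median -0.58) in FVB/N mice and from -0.060 to 0.91 (median 0.33) in PKCε mice. Under FG-3149, Tgfbi ran from -1.27 to -0.57 (median -0.98) in FVB/N mice and from -0.24 to 0.89 (median 0.55) in PKCε mice. The FVB/N IgG arrays were spread over more than 2 units and overlapped with 6 of 10 PKCε arrays, while under FG-3149 there was no overlap. The difference was 0.93 ± 0.17 (SE, 1.9-fold, adjusted p = 1.93e-05) under IgG and 1.43 ± 0.15 (SE, 2.7-fold, adjusted p = 4.92e-10) under FG-3149. The other 3 probe sets were called higher in both comparisons, at 0.75 to 0.87 under IgG.

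The Id genes, whose products block basic helix-loop-helix factors and which BMP signals induce, did not move as one. Under IgG, Id3 ran from -0.71 to 0.46 (median -0.13) in FVB/N mice and from 0.0027 to 0.60 (median 0.090) in PKCε mice. Under FG-3149, Id3 ran from -0.66 to 0.12 (median -0.15) in FVB/N mice and from -0.32 to 0.45 (median 0.076) in PKCε mice. Id3 overlapped between the lines under both treatments. The difference was 0.29 ± 0.10 (SE, 1.22-fold, adjusted p = 0.022) under IgG and 0.25 ± 0.093 (SE, 1.19-fold, adjusted p = 0.0256) under FG-3149. The first call was lost without FVB/N IgG replicate 10 or PKCε IgG replicate 9 (adjusted p up to 0.0661), and the second without FVB/N FG-3149 replicate 7 (adjusted p = 0.0572).

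Id1 and Id2 were called under FG-3149 alone, in opposite directions. Under IgG, Id1 ran from -0.46 to 0.30 (median -0.11) in FVB/N mice and from -0.71 to 0.23 (median -0.23) in PKCε mice. Under FG-3149, Id1 ran from -0.24 to 0.58 (median 0.27) in FVB/N mice and from -0.79 to 0.53 (median -0.14) in PKCε mice. The Id1 ranges overlapped, with 5 of 12 PKCε FG-3149 arrays below every FVB/N array. Id1 differed by -0.18 ± 0.12 (adjusted p = 0.196) under IgG and by -0.35 ± 0.10 (SE, 1.28-fold, adjusted p = 0.00585) under FG-3149. Id2 differed by 0.13 ± 0.15 (adjusted p = 0.478) under IgG and by 0.33 ± 0.14 (SE, 1.26-fold, adjusted p = 0.0427) under FG-3149. The Id2 call was lost when any of 12 arrays was left out.

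The antibody comparison in PKCε mice asks which members differed between FG-3149 and IgG in the transgenic line. With the antibody, 6 of 39 members were lower in PKCε mice and 0 were higher, where 8.82% of all genes were called, 3.74% lower and 5.08% higher. They were the ligands Tgfb3 and Inhba, the receptors Tgfbr2 and Eng, and the antagonists Fstl1 and Fstl3. None of the 6 was without overlap between the treatments, and among all genes 0.0484% were lower and 0.0645% higher without overlap. The median difference over the members was -0.099, beside 0.016 over all genes. Each of the 6 was also higher in PKCε than in FVB/N mice under IgG, but both comparisons use the PKCε IgG arrays.

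Fstl1 had the largest and most stable of these differences: it was -0.64 ± 0.14 (SE, 1.56-fold, adjusted p = 0.00178). As given above, PKCε IgG mice had a median of 1.11 and PKCε FG-3149 mice one of 0.36, and 6 of 12 antibody arrays lay below every IgG array. Its other probe set was called lower too. Fstl1 kept its call with any 1 array left out and in 17 of 18 other settings, and in males alone it was -0.50 (adjusted p = 0.0758). Tgfb3 differed by -0.60 ± 0.17 (SE, 1.51-fold, adjusted p = 0.022), with 5 of 12 antibody arrays below every IgG array. The Tgfb3 call was lost without PKCε IgG replicate 6 or 9 (adjusted p up to 0.0563).

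Inhba differed by -0.39 ± 0.10 (SE, 1.31-fold, adjusted p = 0.0112), with 11 of 12 antibody arrays below the IgG median. Fstl3 differed by -0.35 ± 0.10 (SE, 1.28-fold, adjusted p = 0.0196), with 10 of 12 below the IgG median. Both remained called with any 1 array left out. Eng differed by -0.35 ± 0.11 (SE, 1.28-fold, adjusted p = 0.0429), with all 12 antibody arrays below the IgG median. Tgfbr2 differed by -0.29 ± 0.092 (SE, 1.22-fold, adjusted p = 0.0384), with 11 of 12 below it. The calls of Tgfbr2 and Eng were lost when any of 11 and any of 12 arrays were left out, and with the 3 probe sets of Tgfbr2 averaged it was -0.067 (adjusted p = 0.425). Neither of the other probe sets of Tgfbr2 was lower with the antibody. The other probe set of Eng was lower but was not called.

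The count of lower members fell from 6 to 3 without PKCε IgG replicate 6 or without replicate 9, which left Inhba, Fstl1 and Fstl3 in each case. It fell to 2 without the arrays of high lung markers (Inhba and Fstl1), to 2 without the arrays of high atrial level (Fstl1 and Fstl3), to 1 with no sex term (Fstl1) and to 0 in males alone. With the Gapdh 3′ minus 5′ difference as a covariate it was 2 (Inhba and Fstl1). In females alone Tgfb3, Inhba, Tgfbr2 and Eng lost their calls (adjusted p from 0.0535 to 0.139). Tgfb2, Tgfbr1 and Skil were called lower there, where 317 of all genes were lower. Over all genes the number lower fell too, from 463 to 187 without the arrays of high lung markers, 246 without those of high atrial level, 344 with no sex term, 37 in males alone and 200 with the Gapdh covariate. Of the fibroblast markers, 2 of 7 were lower with the antibody in PKCε mice, and their part in these differences was not tested.

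Tgfb2, the member that differed most between the lines, was not called with the antibody in PKCε mice: it differed by -0.28 ± 0.14 (95% interval -0.57 to 0.0096, adjusted p = 0.244). In females alone it was -0.59 (adjusted p = 0.0469). Bmp4, Tgfbi and Tgfb1 differed by -0.028 ± 0.14, 0.057 ± 0.16 and 0.031 ± 0.14 and were not called. Closest to the threshold without reaching it were Skil (-0.25 ± 0.091, adjusted p = 0.0728) and Smad1 (-0.17 ± 0.067, adjusted p = 0.12). The other members not called lay between -0.44 (Inhbb) and 0.22 (Bmpr1a). No Smad and no target gene was called among 7 and 4. Of the members' other probe sets, one of Bmpr1a was called higher (0.17, adjusted p = 0.0225).

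**Figure D4:**
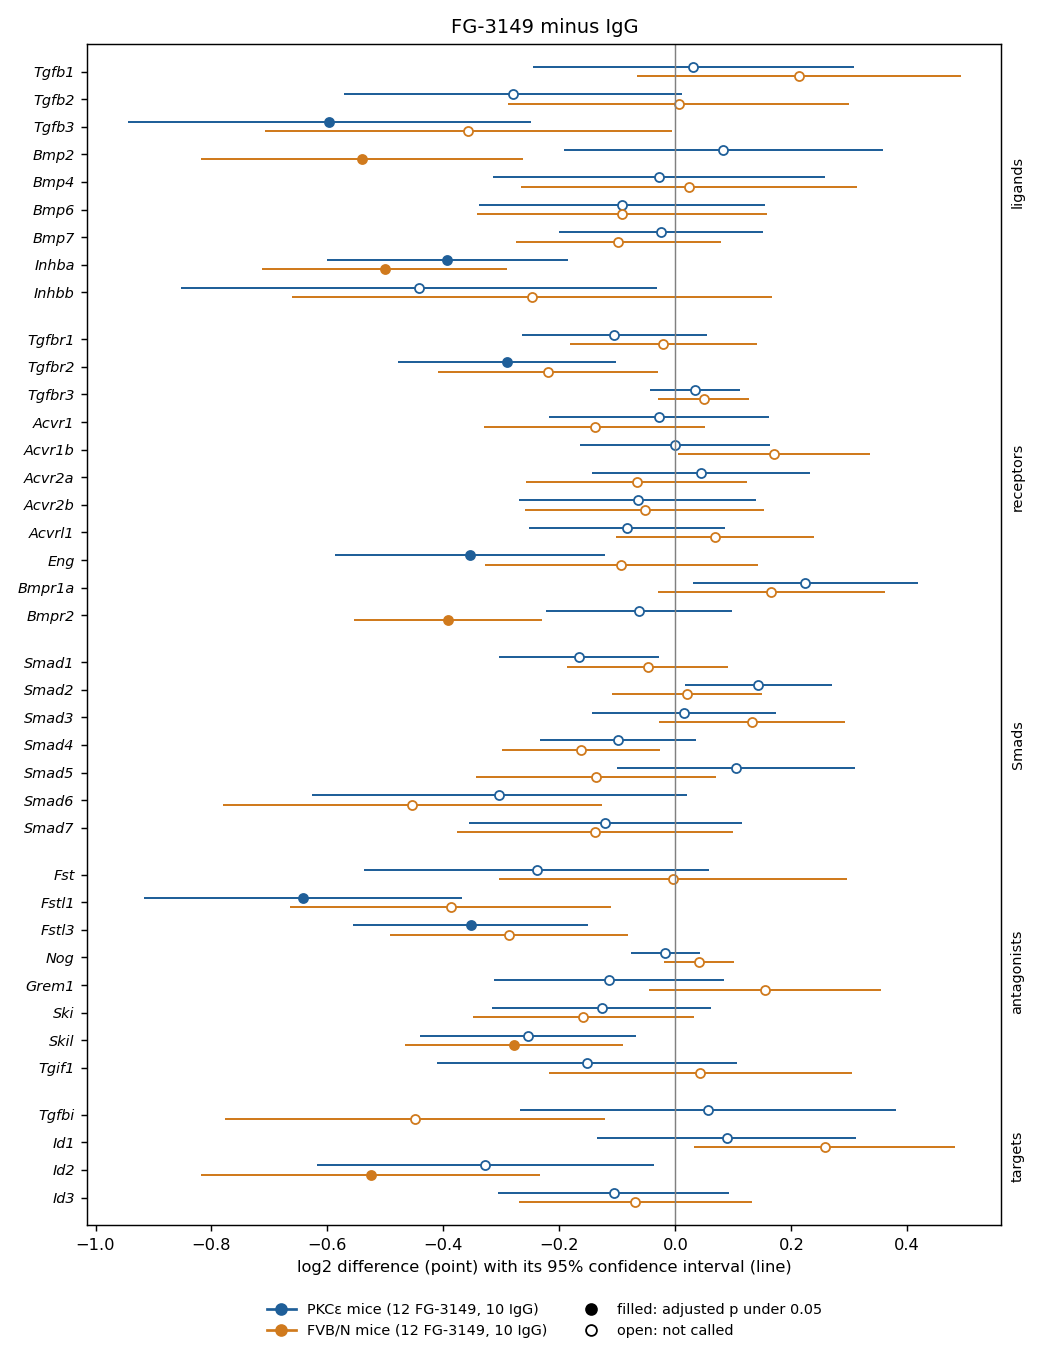
FG-3149 minus IgG for each of the 39 measured members, in PKCε mice (blue) and FVB/N mice (orange); points are log2 differences, lines 95% confidence intervals, and filled points are called. Filled points all lie below 0, and Inhba is the one member filled in both lines.

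In FVB/N mice, which lack the transgene, 5 of 39 members were lower with the antibody and 0 were higher, where 9.0% of all genes were called, 4.57% lower and 4.43% higher. The lower members were Bmp2, Inhba, Bmpr2, Skil and Id2. The median difference over the 39 members was -0.092, beside 0.025 over all genes, and 0 members were without overlap (0.129% of all genes were lower and 0.105% higher without overlap). Inhba was the only member called lower in both lines. The groups compared share no array, but both comparisons come from the same fit, with its sex term and estimate of spread in common.

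Inhba differed by -0.50 ± 0.10 (SE, 1.42-fold, adjusted p = 0.00128) in FVB/N mice, with 6 of 12 antibody arrays below every IgG array. Bmpr2 differed by -0.39 ± 0.080 (SE, 1.31-fold, adjusted p = 0.0011), with all 12 antibody arrays below the IgG median. Bmp2 differed by -0.54 ± 0.14 (SE, 1.45-fold, adjusted p = 0.00852), again with all 12 below the IgG median. These 3 kept their calls with any 1 array left out. Id2 ran from -0.29 to 0.98 (median 0.14) under IgG and from -0.75 to 0.055 (median -0.28) under FG-3149 in FVB/N mice, and in PKCε mice from -0.16 to 1.11 (median 0.33) and from -0.60 to 0.62 (median 0.043). The antibody arrays of FVB/N mice were the lowest group for Id2, and 5 of 12 lay below every FVB/N IgG array. Id2 differed by -0.53 ± 0.14 (SE, 1.44-fold, adjusted p = 0.0157) in FVB/N mice, and its other 2 probe sets were not called, at -0.32 and -0.017. Skil differed by -0.28 ± 0.092 (SE, 1.21-fold, adjusted p = 0.0487), a call that was kept with only 16 of 44 arrays left out in turn and in 7 of 18 other settings.

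Atrial and adipocyte genes moved along this comparison as well. With the antibody in FVB/N mice, 3 of 3 atrial and 4 of 4 adipocyte markers were lower. The mean atrial level ran from -1.16 to 8.47 (median 4.90) under IgG and from -2.97 to 4.40 (median -1.76) under FG-3149, and the mean adipocyte level from -1.21 to 5.003 (median 1.53) and from -1.17 to 1.53 (median -0.45). Without the arrays of high atrial level, which leaves 2 females and 3 males in the FVB/N IgG group, 1 of the 5 members was called (Bmpr2). Bmp2 was then -0.24 (adjusted p = 0.562), Inhba -0.34 (adjusted p = 0.178) and Id2 -0.27 (adjusted p = 0.616). With the atrial level as a covariate, Inhba and Bmpr2 were called. Over all genes the number lower fell from 567 to 114 without those arrays and to 131 with the covariate. Of the fibroblast markers, 2 of 7 were lower, and the part of adipocyte and fibroblast genes was not tested.

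Leaving out single FVB/N IgG arrays raised the count as well. Without FVB/N IgG replicate 5, 9 members were lower, and without replicate 10 there were 10. The share of all genes in these runs is not given here, so a rise particular to the members is not shown. Both sets hold the 5 lower members with Smad6, Fstl1, Fstl3 and Tgfbi, and the second also Smad4. On all arrays none of these 5 was called. Smad6 differed by -0.45 ± 0.16 (adjusted p = 0.0682), Fstl1 by -0.39 ± 0.14 (adjusted p = 0.0652), Fstl3 by -0.29 ± 0.10 (adjusted p = 0.0639), Tgfbi by -0.45 ± 0.16 (adjusted p = 0.0716) and Smad4 by -0.16 ± 0.067 (adjusted p = 0.125). Other probe sets of Fstl1 (-0.60, adjusted p = 0.00464) and Tgfbi (2 of 3, at -0.40 and -0.47) were called lower in FVB/N mice on all arrays, as was one of Smad5 (-0.25, adjusted p = 0.0339). Tgfb2 and Bmp4 stood at 0.0060 ± 0.14 and 0.023 ± 0.14.

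Whether the antibody difference itself differed between the lines was tested as an interaction, which is also the test of whether the line difference changed with the antibody. By limma, 0 of 39 members were called, with 3 at an unadjusted p under 0.05, where 3.86% of all genes were called, 2.09% higher and 1.78% lower. The 3 were Bmp2 at 0.62 ± 0.19 (adjusted p = 0.0561), Bmpr2 at 0.33 ± 0.11 (adjusted p = 0.0914) and Tgfbi at 0.51 ± 0.23 (adjusted p = 0.247), each with the antibody difference more negative in FVB/N mice. Inhba, called in both lines, stood at 0.11 ± 0.15 (95% interval -0.19 to 0.40), and Fstl1 at -0.26 ± 0.19 (-0.64 to 0.13). So no member called with the antibody in one line was shown to differ between the lines on all arrays.

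Bmp2 and Bmpr2 lay near enough to the threshold for single arrays to decide. Bmp2 was called in the interaction without FVB/N IgG replicate 5, 6 or 10, without FVB/N FG-3149 replicate 2, 9 or 12, without PKCε IgG replicate 1 or 9, and without PKCε FG-3149 replicate 1 or 2, with values up to 0.70 (adjusted p from 0.0239). Bmpr2 was called without FVB/N IgG replicate 4 (0.38, adjusted p = 0.026) or PKCε FG-3149 replicate 3 (0.36, adjusted p = 0.0484).

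The groups differ in the number of females, and members differed with sex. In the PKCε IgG group, males are mice 192 to 196 and females mice 322 to 362, so sex and mouse number cannot be told apart there. Both arrays of high lung markers are from females of that group. In the term for sex, which is shared by all 4 groups and was examined after the other results, 13 of 39 members were higher in females and 2 were lower, where 15.8% of all genes were called, 8.67% higher and 7.12% lower. The 13 were Tgfb2, Tgfb3, Bmp4, Inhba, Tgfbr1, Tgfbr2, Acvr1, Fstl1, Fstl3, Ski, Skil, Tgif1 and Tgfbi, from 0.18 (Skil) to 0.55 (Fstl1). All 13 are among the 20 members higher in PKCε mice under IgG, a comparison on some of the same arrays. Without the arrays of high atrial level 7 members were higher in females, and over all genes the number higher fell from 1074 to 703. Some markers of other cell types were called higher in females as well: 4 of 7 fibroblast, 2 of 4 adipocyte, 2 of 5 macrophage and 1 of 4 lung markers, with 0 lower. Called lower were 2 of 6 endothelial, 1 of 5 mural and 1 of 7 ventricular cardiomyocyte markers, with 0 higher. The part of these cell types in the members' sex differences was not tested.

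Inhbb went the other way, with the largest sex difference of any member. Its means were -0.54 ± 0.58 (SD, n = 7) in females and 0.46 ± 0.20 (n = 3) in males of FVB/N IgG, and -0.998 ± 0.67 (n = 6) and 0.46 ± 0.38 (n = 6) in FVB/N FG-3149. In PKCε IgG they were -0.13 ± 0.35 (n = 5) and 0.79 ± 0.38 (n = 5), and in PKCε FG-3149 -0.56 ± 0.45 (n = 6) and 0.33 ± 0.56 (n = 6). Males were higher in every group. Inhbb differed by -1.08 ± 0.15 (SE, 2.11-fold, adjusted p = 1.58e-06), females minus males, although its other probe set gave -0.13 (adjusted p = 0.136). Id1 was the other member lower in females, at -0.35 ± 0.079 (SE, 1.28-fold, adjusted p = 0.00169). FVB/N FG-3149 replicate 11, whose Y-linked genes go against its female label, had an Inhbb value of 0.092, above the other females of its group and below 5 of its 6 males.

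Whether the line difference under IgG itself differed between the sexes was tested with the 8 means of group and sex. This contrast rests in part on PKCε IgG females against males, where sex and mouse number cannot be told apart. By limma, 0 of 39 members were called, with 7 at an unadjusted p under 0.05, where 0.0807% of all genes were called. The largest values were 0.77 ± 0.27 for Tgfb1 (adjusted p = 0.42) and 0.73 ± 0.28 for Tgfb2 (adjusted p = 0.485), with the larger line difference in females. Without the arrays of high atrial level, which leaves 2 FVB/N IgG females, 6 members were called, where of all 12394 genes 250 were called higher and 93 lower in that run, against 10 and 0 on all arrays. All 6 had a larger line difference in females: Tgfb3 (1.31), Eng (0.78), Fstl1 (0.92), Fstl3 (0.69), Tgif1 (0.98) and Tgfbi (1.10), with adjusted p from 0.0105 to 0.0429.

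Other genes of the pathway were taken from a list of 71 symbols, of which 52 were measured. Under IgG, 17 of them were higher in PKCε mice and 11 lower, beside 20.7% and 21.5% of all genes. Their median difference was -0.055, beside -0.046 over all genes. Under FG-3149, 18 were higher and 10 lower, beside 21.5% and 25.5% of all genes. The 4 with the lowest p under IgG were all higher: Pmepa1, a TGF-β-induced membrane protein that holds back Smads, by 1.24 ± 0.11, Bmp1, a procollagen proteinase and no BMP ligand despite its name, by 0.85 ± 0.09, Itgav, an integrin chain that helps release latent TGF-β, by 0.79 ± 0.10, and Nbl1, a secreted BMP antagonist, by 1.26 ± 0.16 (SE; adjusted p from 7.43e-12 to 2.19e-08, limma). With the antibody, 4 of the 52 were lower and 0 higher in PKCε mice, among them Pmepa1 (-0.47) and Nbl1 (-0.65), and 3 were lower and 1 higher in FVB/N mice. Over all genes 3.74% were lower and 5.08% higher in PKCε mice, and 4.57% and 4.43% in FVB/N mice. Ccn2, which encodes the antibody's target, was higher in PKCε mice by 0.74 ± 0.23 under IgG (adjusted p = 0.00756) and was not called with the antibody, at -0.35 ± 0.21 in PKCε mice and -0.52 ± 0.22 in FVB/N mice (adjusted p = 0.363 and 0.135).

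To describe which genes varied with Tgfb2 and Inhba from mouse to mouse, Pearson's r was taken over the 44 arrays after the mean of each group and sex was removed, among 12393 other genes. Those most like Tgfb2 were Plekho1 (0.69), Grk5 (0.68), Spg21 (0.66), Dhx36 (0.63) and Bcr (0.63). Those most like Inhba were Sprr2h (0.61), Ppan (0.54), Rad1 (0.52), Nifk (0.50) and Pak3 (0.50). The arrays share their processing and the genes' common median scaling, so these values are a description without a test.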

How the data were processed

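Left ventricular RNA of 44 mice (250 ng each) was measured on Affymetrix 430A 2.0 arrays. Per the series' design text, the authors used GCRMA and then GeneSpring GX 7.3.1, which scaled every probe set to its median across arrays. The deposited values are therefore linear ratios, from which array brightness and detection calls cannot be read, so genes near background cannot be recognised. Of 22690 probe sets, 20393 matched 1 gene, 691 several and 1606 none, by GEO's platform annotation.

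Log2 of each deposited ratio was taken and 1 probe set per gene kept (largest SD over all arrays, without regard to group). The 4 group means and sex were fitted with limma 3.58.1 (lmFit and eBayes) in R 4.3.3, two-sided, with Benjamini-Hochberg adjustment over all 12394 genes of each comparison. Other probe sets were fitted together and adjusted over all 22690. The fit was tested on simulated data. The members, the other pathway list and the marker lists were chosen with earlier results of these data known. Values by group were given for each member called in a comparison, and the others by their differences; of the other pathway genes the 4 with the lowest p under IgG were named. Ccn2, as the antibody's target, and the antibody values of Nbl1 and Pmepa1 were added after their values were seen.

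Promoter sequences are from RefSeq (GRCm38.p6), which lists 28 of the members. Alternatives were no sex term, the replicate number as a block, array centring, quantile normalization, averaged probe sets, a pseudocount of 0.1, a floor, a filter on SD, robust eBayes, array weights, fewer groups, males or females alone, the Gapdh difference or atrial level as a covariate, runs without arrays of high atrial level (above 4) or lung markers (Sftpc and Scgb1a1 both above 3), a threshold of 0.01, and leaving out each array. The term for sex was added as a comparison after seeing the data.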

Additional observations from a re-analysis of the deposited data

Results flagged for a closer look

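In 78 groups of 10 arrays or fewer, 3 members had 1 array far from the others by Dixon's test at its 95% critical value, which chance alone passes in about 1 of 20 groups. Acvr1b on PKCε IgG replicate 4 stood at 0.48, with the next array at 0.11, a gap of 0.578 of the range. Bmpr2 on FVB/N IgG replicate 4 stood at -0.36, with the next at 0.04 (0.489 of the range), and without that array Bmpr2 was called in the interaction. That array also had high atrial genes (7.87) and Scgb1a1 at 9.36. Fst on PKCε IgG replicate 9 stood at 1.66, with the next at 0.48 (0.672 of the range), and that array also had high lung markers. The groups of 12 arrays were not tested.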

How the results depend on the processing

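Counts of members called were recomputed under 18 other settings and with each of the 44 arrays left out. Under IgG, 20 members were higher in PKCε mice, and 13 in males alone, where the number higher over all genes fell from 2566 to 1095. Under IgG 0 were lower, but 1 with the replicate block, 1 with array weights, 1 with only the groups compared and 2 with the atrial covariate. Over all genes 2669 were lower, and in those runs 2600, 2810, 2610 and 3208. Tgfb1 reversed in males alone (-0.071). With the antibody in PKCε mice, 6 were lower, but 1 with no sex term, 3 with the replicate block, 3 after quantile normalization, 0 in males alone, 2 with the Gapdh covariate, 2 without arrays of high atrial level, 2 without arrays of high lung markers and 1 at the threshold of 0.01, while 1 (Bmpr1a) was higher with array weights. Over all genes the number lower was 463, and 333 with the replicate block, 321 after quantile normalization and 179 at 0.01. For the other runs that number is given above. The number higher over all genes was 630, and 764 with array weights. With the antibody in FVB/N mice, 5 were lower, but 0 in males alone, 2 with the atrial covariate, 1 without arrays of high atrial level and 3 at 0.01, and 1 (Acvr1b) was higher with averaged probe sets. Under FG-3149, 5 were lower in PKCε than in FVB/N mice, but 1 in males alone and 3 at 0.01. Over all genes 3165 were lower, and in those runs 1401 and 1871. In the interaction, 0 were called, but 1 with the least variable genes left out, 1 with array weights, 2 with the Gapdh covariate and 1 without arrays of high lung markers. Over all genes 259 were higher and 220 lower. In those runs the numbers were 250 and 171 (of 8262 genes), 288 and 244, 388 and 337, and 201 and 172. For the sex difference of the line effect, 0 were called, but 6 without arrays of high atrial level, where 250 of all genes were higher and 93 lower. In the sex term 13 were higher in females, but 6 after quantile normalization, 7 without arrays of high atrial level and 6 at 0.01. Over all genes 1074 were higher in females, and in those runs 859, 703 and 538. The cause was not tested, and a sex alone leaves fewer arrays. Counts over all genes for the runs with 1 array left out are not given here. Leaving out 1 array gave 19 to 20 higher and 0 to 2 lower members for the line under IgG (2 without FVB/N IgG replicate 3, 1 without FVB/N FG-3149 replicate 12, PKCε IgG replicate 3 or PKCε FG-3149 replicate 1), 20 to 25 and 4 to 5 under FG-3149, 0 to 0 and 3 to 6 for the antibody in PKCε mice, 0 to 0 and 4 to 10 in FVB/N mice, 0 to 1 in the interaction, 0 to 0 for the sex difference, and 11 to 13 and 2 to 3 for the sex term. Replicate numbers are shared by groups without a stated pairing, and the correlations of same-numbered arrays ran from -0.50 to 0.24, so the replicate block counts above say nothing of a weaker effect. Signal over background is not in the values, so genes near background cannot be recognised, and what limits precision was not tested.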
